A study of Mus musculus with 13 samples.

Results

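Apoe and 9 further genes of lipid handling were followed in single microglia of mice on control diet or high-fat diet (HFD): Apoe, Lpl, Abca1, Abcg1, Plin2, Soat1, Cd36, Scd2, Npc2 and Lipa. These 10 genes were set by name, and all of them were present among the 17280 genes of the study's filtered count table. Apoe was held by few cells: 96 of 1617 cells carried 86.1% of its transcripts, and its level in a group of cells often rested on 1 cell. Apoe, Abca1, Npc2 and Lipa had enough counts to be tested against control at single lengths of HFD, Lipa at all of the 6 lengths but 16 weeks. None of them passed the test at any length tested. Within control alone the level of Apoe ran from 0 to 7742 UMIs per 1000000 transcripts.

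Microglia, the resident macrophages of the brain, take up lipid from debris and lipoproteins, break it down in lysosomes, and store it in droplets or export it. Apoe is the apolipoprotein of the particles that carry exported cholesterol in the brain, and its loading depends on the transporters Abca1 and Abcg1. In microglia, Apoe and Lpl are known for being low in the resting state and high in cells near damage or plaques, while border-associated macrophages and astrocytes carry Apoe at rest.

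The mice were fed standard chow, called control here, or an HFD with 60% fat. The sample labels give 3 days of HFD for all 13 plates, whereas the table of wells gives the lengths from 1 day to 16 weeks that are used here. The cells came from male C57BL/6J mice, and CD45lo CD11b+ microglia were sorted singly into 13 plates of 192 wells and sequenced by CEL-Seq2. The study's methods describe hypothalamic microglia, whereas the sample labels also name cerebellum, hippocampus and cortex, and no column tells the regions apart. CEL-Seq2 tags each transcript once at its 3′ end with a unique molecular identifier (UMI), so a level is a number of UMIs and does not grow with the length of the gene. Each plate was 1 library, and the same 192 barcodes were used on all 13 plates.

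Wells with at least 1500 transcripts were taken as cells, 1617 of 2496 wells. They comprised 722 control cells from 19 replicates, 161 cells after 1 day of HFD from 6 replicates, 121 after 3 days from 4, 172 after 1 week from 6, 128 after 4 weeks from 3, 82 after 9 weeks from 2 and 231 after 16 weeks from 5. Wells marked as 7 days and as 1 week were joined as 1 week. A replicate is an identifier in the table of wells and need not be 1 mouse. Identifiers recur across diets and plates, and cells with 1 identifier and diet were joined over plates only where plates hold cells whose names differ in plate and well alone, so that control M3 of plate 9 and control M3 of plates 10, 11 and 12 are different replicates. The diets were compared over sums of the cells of 1 replicate on 1 plate, so a replicate on several plates entered more than once. The p-values thus measure the spread between sums, both between replicates and between plates of the same replicate. Cells of 1 replicate on 1 plate were added up where there were at least 5 of them, which gave 68 sums, and levels are given as CPM, the transcripts of a gene per 1000000 transcripts of the sum. A sum at 0 allows a level of up to 3 UMIs, which is 13.7 to 132 CPM depending on the sum, and covers counting error only. The 11 microglial markers together had 3 or more UMIs in 99.8% of cells. The 6 border-associated macrophage markers in the table reached 3 UMIs in 1.18% of cells, the 4 monocyte markers in 0.99% and the 5 oligodendrocyte markers in 2.97%.

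Over all cells Apoe was the most abundant of the 10 genes, at 1220 CPM. Npc2 followed at 365 CPM and Abca1 at 336 CPM, then Lipa at 149, Abcg1 at 95.8, Soat1 at 87.3, Lpl at 65.9, Scd2 at 44.8, Plin2 at 28.6 and Cd36 at 6.96 CPM. The order by number of positive cells was different. At least 1 UMI of Npc2 was found in 60.1% of cells, of Abca1 in 53.2% and of Lipa in 33.5%, but of Apoe in 32.1%.

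Apoe (chr7:19696109-19699188 in GRCm38, minus strand) encodes the main apolipoprotein of the brain. The 1617 cells held 6252 Apoe UMIs. No UMI was seen in 1098 cells, and 238 cells had 1 UMI, 93 had 2 and 92 had 3 to 9. The 96 cells with 10 or more are called Apoe-high below, which is a range and not a cell type. The 17 cells with the most Apoe, 1% of all cells, held 38.2% of the UMIs (exact binomial 95% interval 37.0 to 39.5%, counting error only). The 5 highest cells held 14.5% and the highest cell, a control cell of plate 9 with 211 UMIs, 3.37%. Of 71 genes whose total lay within 1.5-fold of that of Apoe, none had a higher share in the top 1% of cells, and their median share was 4.75%.

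**Figure D1:**
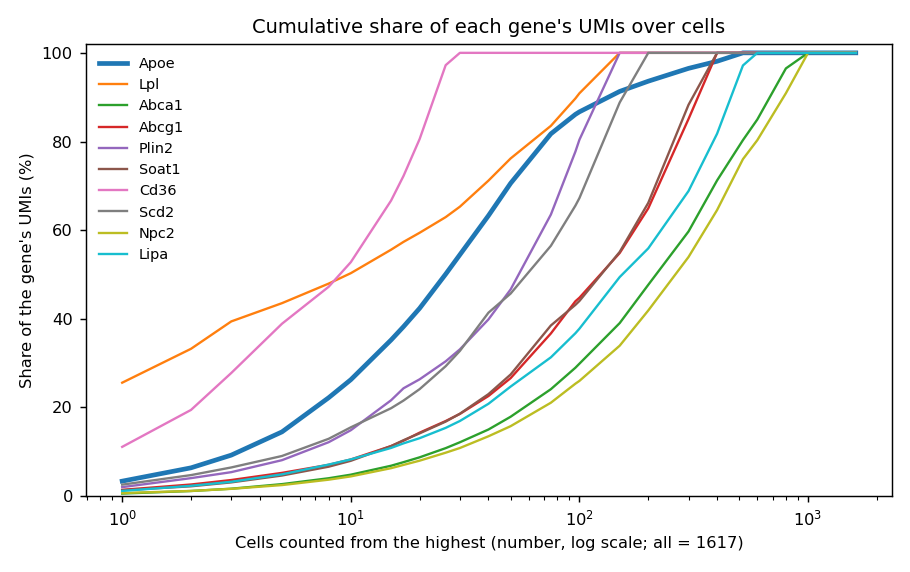
The share of each gene's UMIs (%, y axis) held by the cells with the most of it, counted from the highest (number of cells, log scale, x axis), over all 1617 cells. The curves of Cd36, Lpl and Apoe rise earliest, with 72.2%, 57.4% and 38.2% of the UMIs in the top 17 cells, whereas those of Npc2 and Abca1 hold 7.04% and 7.66% there.

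The same concentration was seen within the sums. In 33 of the 65 sums that had any Apoe UMI, 1 cell held over 50% of them, and so it was in 21 of the 38 sums with at least 10 UMIs. On plate 13, the control sum of replicate M16 reached 7742 CPM, the highest of all, with 183 UMIs in 9 cells, of which 1 cell held 179. Replicate M1 on plate 10 had 62 Apoe UMIs in 11 control cells, all of them in 1 cell.

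Lpl (chr8:68880491-68907448, plus strand), which encodes lipoprotein lipase, the enzyme that frees fatty acids from lipoproteins, was as uneven at a lower level. It had 340 UMIs in 131 cells. A single cell of the 4 weeks HFD sum of replicate M21 on plate 4 held 87 of them, 25.6% of the total. The next were a cell of replicate M8 after 9 weeks on plate 12 with 26 UMIs and a further cell of M21 on plate 4 with 21. These 3 cells held 39.4% of all Lpl UMIs, and no Apoe UMI was found in any of them. The top 17 cells held 57.4% of Lpl, where the median over 2453 genes of like total was 14.3% and 4 genes had a higher share.

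Cd36 (chr5:17781690-17888801, minus strand), a scavenger receptor that takes up fatty acids and oxidized lipoproteins, was close to absent, with 36 UMIs in 27 cells. For so rare a gene a high share in few cells follows from its total, and the median over 2645 genes of like total was 57.1%, beside 72.2% for Cd36. The 7 remaining genes had between 7.04% (Npc2) and 24.3% (Plin2) of their UMIs in the top 17 cells. Their genes of like total had medians from 6.83% to 23.3%, so most of these shares lay near those of other genes. Lipa ranked highest among the 7, at 11.9% beside a median of 9.58%, and 95 of 1214 genes had a higher share.

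Apoe-high cells were spread unevenly over the plates. Plates 4, 5, 7 and 9 held 66 of the 96 Apoe-high cells and 69.7% of all Apoe UMIs in 396 cells, whereas the other 9 plates held 30 Apoe-high cells among 1221. This grouping was read off the Apoe values and gets no test. The number per plate ran from 0 on plate 11 to 22 on plate 4.

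Where a plate held many Apoe UMIs in its Apoe-high cells, its other cells were also more often positive. At least 1 UMI was found in 70.8% of the other cells of plate 4, 69.2% on plate 9, 61.2% on plate 5 and 41.6% on plate 7, but in 9.85% on plate 12 to 33.6% on plate 3 among the other 9 plates. Over the 13 plates, Spearman's rho between the UMIs in Apoe-high cells and the share of positive other cells was 0.82 and Pearson's r was 0.89, as a description of plates that differ in diet, depth and number of cells. The wells below the minimum of transcripts moved along: they held 2632 to 3505 CPM of Apoe on plates 4, 5, 7 and 9, and 187 to 1257 CPM on the others. Whether transcripts passed between wells of a plate was not tested.

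**Figure D2:**
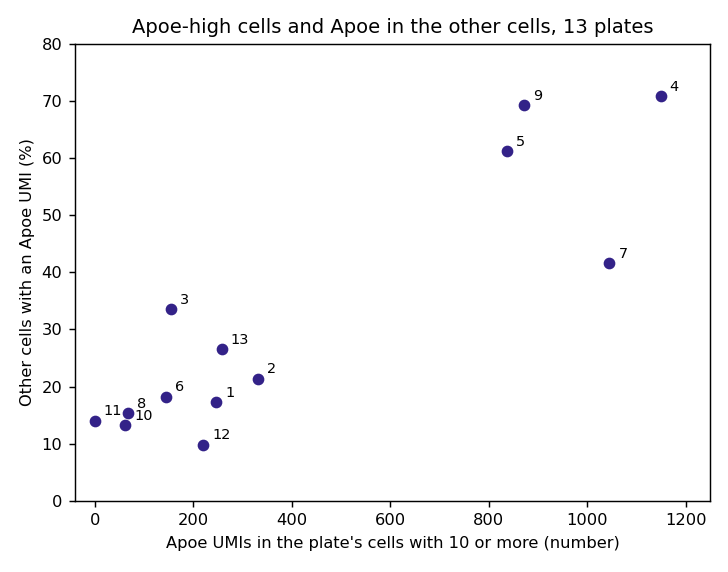
Each point is 1 of the 13 plates, labelled by its number, with the Apoe UMIs in its cells with 10 or more on the x axis (number) and the share of its other cells with at least 1 Apoe UMI on the y axis (%). Plates 4, 5, 7 and 9 lie apart at the upper right with 836 to 1149 UMIs, and the other 9 plates have 331 or fewer.

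On plate 4 the share of positive other cells was near equal in all diets. It was 71.4% in control, which had only 7 cells, and 68.6%, 72.0% and 72.4% after 3 days, 1 week and 4 weeks of HFD. Plate 5, without control cells, had 65.6%, 64.7% and 50.0% at the same lengths. Plate 7 had 53.5% in control and 30.4% after 1 week, and plate 9 had 72.5% and 65.8%. On plate 3, 55.6% of the other cells were positive after 16 weeks of HFD and 12.3% in control. Plates 3, 7 and 9 had 1 replicate of each diet.

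The same replicate could differ widely between plates. Of the 16 replicates sorted onto more than 1 plate, M6 after 16 weeks of HFD ran from 23.1 to 4632 CPM, a ratio of 200, and 1 cell of plate 12 with 163 UMIs made up most of its highest sum. Replicate M25 after 3 days ran from 379 to 4106 CPM and M7 after 9 weeks from 42.6 to 701 CPM. At the other end, M24 after 3 days had 1885 and 3540 CPM, and L4 after 16 weeks 1022 and 1350 CPM.

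Across the diets, the Apoe sums overlapped in every pair of neighbouring levels. The 28 control sums ran from 0 to 7742 CPM with a median of 149 CPM, and 3 of them had no Apoe UMI. After 1 day of HFD the lowest of 6 sums was 50.9, the median 166 and the highest 1592 CPM, and after 3 days the 6 sums gave 63.6, 1132 and 4106 CPM in the same order. After 1 week the 7 sums had a lowest value of 393, a median of 2427 and a highest value of 6000 CPM. These 1 week sums had the highest median, and 6 of them lay on plates 4, 5, 7 and 9. The 3 control sums of those plates had 302 CPM on plate 4, 3089 CPM on plate 7 and 5721 CPM on plate 9. The 5 sums after 4 weeks had 676, 386, 339, 2891 and 3238 CPM, the last pair both on plate 5. After 9 weeks the lowest, median and highest of 6 sums were 22.5, 51.9 and 701 CPM, and after 16 weeks those of 10 sums were 21.7, 139 and 4632 CPM. The 9 weeks and 16 weeks sums thus lay in the range of control.

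**Figure D3:**
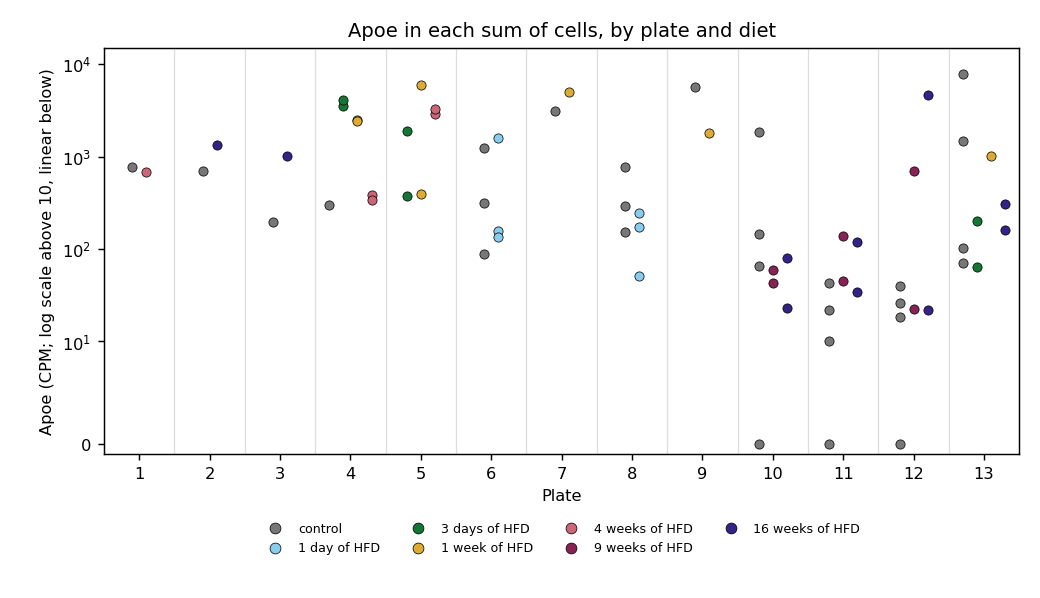
Each point is the Apoe level (CPM, log scale above 10 and linear below, y axis) of the cells of 1 replicate on 1 of the 13 plates (x axis), coloured by diet. On plate 4 both sums after 3 days of HFD lie above the control sum, whereas on plate 13 a control sum is the highest of all at 7742 CPM, and plates 10, 11 and 12 hold the 3 control sums at 0.

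The share of Apoe-high cells by diet was 4.29% of control cells (31 of 722, exact binomial 95% interval 2.94 to 6.04%), 0.621% after 1 day (0.0157 to 3.41%), 11.6% after 3 days (6.47 to 18.7%), 18.0% after 1 week (12.6 to 24.6%), 5.47% after 4 weeks (2.23 to 10.9%), 1.22% after 9 weeks (0.0309 to 6.61%) and 4.76% after 16 weeks (2.40 to 8.36%). On plate 4, 12 of 47 cells were Apoe-high after 3 days and 10 of 35 after 1 week, but 0 of 29 after 4 weeks and 0 of 7 in control. On plate 9, 10 of 50 control cells and 6 of 44 cells after 1 week were Apoe-high, and on plate 7 it was 7 of 50 and 9 of 55. Compared within plates, the share of Apoe-high cells had p-values of 0.2, 0.467, 0.283, 1.0 and 1.0 from 1 day to 9 weeks (two-sided exact permutation of the diets among sums) and 0.580 after 16 weeks (100000 resamples), all 0.85 or above after adjustment over the 6 lengths. The smallest p that the assignments allow was 1.0 after 4 weeks and 0.111 after 9 weeks, so the share could not pass at these lengths.

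To compare the diets within plates, each length of HFD was fitted with all control sums by edgeR's quasi-likelihood test with the plate as a block. Apoe, Abca1 and Npc2 passed the filter on low counts in all 6 fits and Lipa in the first 5. Lpl, Abcg1, Plin2, Soat1, Cd36 and Scd2 did not pass it in any. Beside the members, 0% of 1710 genes were called at an adjusted p under 0.05 after 1 day, 0% of 1719 after 3 days, 0.121% of 1652 after 1 week, 0% of 1862 after 4 weeks, 0.0661% of 1514 after 9 weeks and 0% of 1233 after 16 weeks. Of the members, 0 were called at any length, by edgeR or by DESeq2. An unadjusted p under 0.05 was reached by 1 of 4 members tested after 3 days and 1 of 3 after 16 weeks by edgeR, and by 1 after 3 days by DESeq2. Among all genes tested by edgeR the share was 6.75% after 3 days and 6.81% after 16 weeks. Over the 6 lengths it ran from 3.33% to 7.27%, or 62 to 116 genes, and by DESeq2 it was 32 to 90 genes. With so few members tested, no result about them is read from these counts. The median log2 fold change of the members tested ran from -0.25 after 3 days to 0.28 after 16 weeks, beside -0.00585 to 0.0101 over all genes tested.

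For Apoe the fitted log2 difference from control was -0.45 ± 0.55 (SE) after 1 day, -1.26 ± 0.80 after 3 days and -0.11 ± 0.52 after 1 week. It was -0.06 ± 0.74 after 4 weeks, 0.42 ± 0.81 after 9 weeks and 1.03 ± 0.53 after 16 weeks. Single replicates moved these values. After 1 day the difference was -1.61 without HFD replicate M6 and 0.01 without control replicate M13. After 1 week it ran from -0.71 without control replicate M26 to 0.52 without HFD replicate M4, and after 4 weeks from -0.21 without M26 to 0.32 without HFD replicate L2. After 9 weeks it was -1.38 without HFD replicate M7 and 1.76 without control replicate M1. The largest of these against its error, after 16 weeks, had a p of 0.054 and an adjusted p of 0.74 in edgeR's quasi-likelihood test, and Apoe was higher than the control mean on 4 of 6 plates and in 6 of 10 sums. The 95% interval of the difference was -1.53 to 0.63 after 1 day and -1.13 to 0.91 after 1 week, and so held changes of either direction.

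The 3 days value for Apoe rested on single sums. Control and 3 days shared only plates 4 and 13. On plate 4 the 2 HFD sums had a mean of 3823 CPM beside 302 CPM in the only control sum, replicate M26 with 7 cells. On plate 13 the order was turned, with a mean of 134 CPM in 2 HFD sums beside 2343 CPM in 4 control sums. Of 43 control cells of plate 13, the 2 highest held 179 and 53 Apoe UMIs and the third 3. Without the sum of M26, plate 13 alone decided, and Apoe fell by 3.98 on the log2 scale (edgeR adjusted p = 0.0351). Without the 2 highest control cells of plate 13 instead, Apoe was 2.04 higher (p = 0.0030, edgeR adjusted p = 0.418), and without both these cells and M26 the difference was -0.16 (edgeR adjusted p = 0.984). The direction at 3 days thus changed with which of these cells were kept.

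The 16 weeks value depended on replicate M6, whose plate 12 sum held a cell with 163 UMIs, and without M6 the log2 difference was -0.02. On the 6 plates that held both diets, this was the highest HFD cell, and the highest control cell had 179 UMIs on plate 13. Without both cells the difference was 0.90 (edgeR adjusted p = 0.668). With no filter on low counts Apoe was called, at 1.00 (edgeR adjusted p = 3.23e-08), and at 0.81 without both cells (edgeR adjusted p = 0.00852). In a further fit the highest cell of each diet over all plates was left out. These were the cell with 163 UMIs and a control cell of plate 9 with 211, and the control cell of plate 13 was kept. The differences were then 0.29 (edgeR adjusted p = 0.947) and, with no filter, 0.23 (edgeR adjusted p = 0.953). No cells after 1 day, 9 weeks or 16 weeks lay on plates 4, 5, 7 and 9. The control sums of plates 4, 7 and 9 entered those fits, where with the plate as a block they bear on the filter, the scaling and the spread. After 1 week, plate 13, the only one outside those plates, had 1005 CPM in 1 HFD sum beside a control mean of 2343 CPM, and after 4 weeks plate 1 had 676 CPM beside 775 CPM.

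In the share of cells with an Apoe UMI, each cell of a sum weighs the same. The sums of a plate and the plates were averaged unweighted, so a cell of a small sum weighs more in the mean. The only control sum of plate 4, which entered after 3 days, 1 week and 4 weeks, had 7 cells. After each cell was thinned to 1000 UMIs, 18.2% of all cells had an Apoe UMI. Within plates, the mean share was 8.65% in control and 13.6% in HFD after 1 day, 16.4% and 27.2% after 3 days, and 33.2% and 37.2% after 1 week. It was 11.2% and 23.6% after 4 weeks, 3.08% and 8.50% after 9 weeks, and 7.43% and 12.1% after 16 weeks. The HFD mean was thus higher at all 6 lengths, by up to 12.4 percentage points, but no difference passed the test against the spread between sums. The p-values were 0.265, 0.511, 0.717, 0.167 and 0.199 from 1 day to 9 weeks (two-sided exact permutation of the diets within plates) and 0.536 after 16 weeks (100000 resamples), and all were 0.53 or above after adjustment over the 6 lengths. With the diets permuted among replicates, each kept whole over its plates, the p-values were 0.533 after 9 weeks and 0.642 after 16 weeks (exact permutation) and those of the other lengths were the same. After 4 weeks 0.167 was the smallest p the 6 possible assignments allow. The control sums of plates 4, 10, 11, 12 and 13 entered more than 1 of these comparisons, so the 6 directions are not independent. Without thinning the difference was 6.42 points after 1 day, -4.69 after 3 days, -5.31 after 1 week, -4.62 after 4 weeks, 9.24 after 9 weeks (6 of 6 sums above the control mean of their plate) and 10.2 after 16 weeks (6 of 10), with adjusted p-values of 0.293 or above (permutation). Thinned to 1500 UMIs, it was 10.7 points after 16 weeks, with 9 of 10 sums above the control mean of their plate (p = 0.0215, adjusted p = 0.129 over 6 lengths, permutation).

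Apoe-high cells differed from the other cells in further genes. These are descriptions over cells of all diets, since cells are not replicates, and the Apoe-high cells had more transcripts (median 3819, beside 2719 in cells with 0 Apoe). Levels in these classes are CPM of the transcripts other than Apoe. Apoc1, an apolipoprotein encoded beside Apoe, had 47.8 CPM in Apoe-high cells and 0.913 CPM in cells with 0 Apoe. This was 20 UMIs in 5.21% of Apoe-high cells, 9 of them in the control cell of plate 13 with 179 Apoe UMIs. Axl, a receptor for dying cells that is raised in disease-associated microglia, had 316 and 12.8 CPM. The homeostatic receptor gene P2ry12 had 2054 and 3917 CPM and Tmem119 1262 and 2116 CPM, while Trem2, a receptor for lipids and Apoe, had 1216 and 1215 CPM. The 10 genes of disease-associated microglia in the table, to which Axl and Trem2 belong, summed to 3556 and 2945 CPM, but did not move together. Tyrobp, the signalling partner of Trem2, had 1221 and 914 CPM, Itgax 67.0 and 10.05 and Cst7 38.3 and 3.35 CPM, whereas Gpnmb had 0 and 5.79 CPM. For the remaining 4 the share of cells with a UMI after thinning to 1000 UMIs went against the CPM, so no order is read. Cd9 had 562 and 642 CPM but was found in 45.8% and 44.2% of thinned cells, and Ccl6 had 108 and 118 CPM with 11.5% and 10.7%. Csf1 had 12.0 and 16.4 CPM with 2.08% and 1.55%, and Igf1 16.7 and 7.00 CPM with 0 and 0.546%.

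Among the members, Npc2 had 581 CPM in Apoe-high cells and 325 CPM in cells with 0 Apoe, Lpl 120 and 67.0, Plin2 55.0 and 24.7, and Cd36 35.9 and 4.87 CPM. Abca1 had 371 and 331 CPM, Abcg1 127 and 95.6, Soat1 117 and 76.4, Scd2 59.8 and 38.7 and Lipa 165 and 141 CPM. After thinning to 1000 UMIs a UMI of Npc2 was found in 44.8% and 26.3% of these cells and a UMI of Lpl in 10.4% and 3.28%, but Abca1 in 18.8% and 25.1% and Lipa in 8.33% and 11.8%. For Abca1, Scd2 and Lipa the share at equal depth went against the CPM, so no order is read for them. Over all 1617 thinned cells the rank correlation of Apoe with the other 9 genes lay between -0.04 (Scd2) and 0.09 (Npc2), which in counts this sparse is no finding.

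Some markers of other cells or states moved with Apoe and some did not. Astrocyte markers summed to 113 CPM in Apoe-high cells and 24.7 CPM in cells with 0 Apoe, but 79.1 of the 113 CPM came from Clu, with 33 UMIs in 4.17% of Apoe-high cells. Gja1, of the same list, had 0 and 3.04 CPM and Atp1b2 2.39 and 2.44 CPM, and at least 3 astrocyte UMIs were found in 1.04% of Apoe-high cells and 1.42% of cells with 1 to 9 Apoe UMIs. Oligodendrocyte markers summed to 213 and 141 CPM, with Mag in the other direction at 28.7 and 44.5 CPM. Neuronal markers had 35.9 and 32.6 CPM, endothelial markers 21.5 and 49.6 and lymphocyte markers 4.78 and 7.31 CPM. The 1 neutrophil marker in the table, S100a9, had 26.3 CPM in Apoe-high cells, 717 CPM in cells with 1 to 9 Apoe UMIs and 3.35 CPM in cells with 0 Apoe, and of the 2 cells with at least 3 of its UMIs 0 were Apoe-high. MHC class II genes, which present antigen, had 5 or more UMIs in 23 of the 96 Apoe-high cells, in 14 of 423 cells with 1 to 9 Apoe UMIs and in 4 of 1098 cells with none. The 23 cells had 1492 CPM of Ccr2, a monocyte receptor, and 431 CPM of Mrc1, a macrophage mannose receptor, beside 3.50 and 119 CPM in the 73 other Apoe-high cells and 7.12 and 9.06 CPM in the 1503 cells with neither. The other markers of these cell types did not all follow. Of the 4 monocyte markers, Ccr2 and Ms4a4c were higher in Apoe-high cells than in cells with 0 Apoe (475 beside 7.61 CPM and 40.7 beside 2.13 CPM), whereas Plac8 had 0 beside 4.87 CPM and Vcan 4.78 beside 7.61 CPM. Of the 6 border-associated macrophage markers, Mrc1 had 218 beside 7.61 CPM, Pf4 55.0 beside 0 and Ms4a7 52.6 beside 3.35 CPM. Cbr2 had 12.0 beside 0.913 CPM, Cd163 4.78 beside 1.52 and Lyve1 4.78 beside 6.09 CPM, from 2 to 5 UMIs in Apoe-high cells, and no order is read for these 3, as their shares after thinning went against the CPM. The 73 cells had 252 CPM of Axl and 2233 CPM of P2ry12, beside 19.6 and 3869 CPM in those 1503 cells.

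At least 3 UMIs of the markers of another cell type were found in 91 cells, 5.63% of all, and these held 36.5% of the Apoe UMIs. Of 19 cells with border-associated macrophage markers 17 were Apoe-high, with a median of 72 Apoe UMIs. Of 16 cells with monocyte markers 12 were Apoe-high, and of 48 with oligodendrocyte markers 8. Of the other lists, 8 cells had astrocyte, 5 endothelial, 3 neuronal and 2 neutrophil markers, and 65 of the Apoe-high cells carried no such markers. Without the 91 cells, the top 1% of cells held 44.9% of the Apoe UMIs that remained. The summed level of the border-associated macrophage markers ran from 0 to 140 CPM in control sums, 0 to 16.8 after 1 day, 0 to 423 after 3 days, 0 to 317 after 1 week, 25.7 to 314 after 4 weeks, 0 to 168 after 9 weeks and 0 to 221 CPM after 16 weeks. The summed level of MHC class II genes had a median of 16.9 CPM in control sums (0 to 717 CPM) and 15.3 CPM after 1 day (0 to 19.5). It was 386 CPM after 3 days (31.8 to 10960), 965 after 1 week (131 to 9834) and 1222 after 4 weeks (15.4 to 20072), then 22.5 after 9 weeks (0 to 60.0) and 29.4 CPM after 16 weeks (0 to 1616). The lengths with the highest MHC class II medians thus included 3 days and 1 week, those with the highest shares of Apoe-high cells, and the part of these cells in the Apoe values was not tested. Without the 91 cells Apoe was 1.37 higher on the log2 scale after 3 days (edgeR adjusted p = 0.75), and the part of these cells in the difference was not tested further.

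For Lpl, 36.5% of the UMIs were in these 91 cells, at 296 CPM beside 45.5 CPM in the rest, and for Cd36 30.6%. The other 7 members had between 7.66% (Abcg1) and 12.2% (Plin2) of their UMIs there.

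Abca1 (chr4:53030787-53159895, minus strand), the transporter that loads cholesterol and phospholipid onto Apoe, was more even. Its 28 control sums ran from 111 to 547 CPM with a median of 332 CPM. The medians in HFD were 354 CPM after 1 day, 253 after 3 days, 356 after 1 week, 304 after 4 weeks, 281 after 9 weeks and 346 CPM after 16 weeks, with sums between 165 and 608 CPM. All HFD ranges overlapped with control. The 6 sums after 3 days were the lowest set, from 165 to 297 CPM. On plate 4 they had 165 and 274 CPM beside 402 CPM in control, and on plate 13 285 and 191 CPM beside 491, 428, 152 and 248 CPM. The fitted log2 difference after 3 days was -0.63 ± 0.31 (SE) with a p of 0.0451 and an adjusted p of 0.716 in edgeR's quasi-likelihood test, and 0 of 4 sums lay above the control mean of their plate. It stayed below 0 in all 23 alternatives, from -0.90 to -0.21, without being called in any. After 1 week, 4 weeks and 9 weeks the values were -0.38 ± 0.25, -0.38 ± 0.34 and -0.31 ± 0.21, after 1 day 0.14 ± 0.20 and after 16 weeks -0.03 ± 0.14. The 1 week value ran from -0.65 without control replicate M1 or HFD replicate M2 of plate 7 to 0.00215 without HFD replicate M4, and the 4 weeks value from -1.08 without control replicate L1 to -0.04 without control replicate M26. After 9 weeks it stayed between -0.43 and -0.22.

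Abcg1 (chr17:31057675-31117988, plus strand), which exports cholesterol to lipoprotein particles, had medians of 92.8 CPM in control, 61.0 after 1 day, 65.5 after 3 days, 81.2 after 1 week, 72.3 after 4 weeks, 115 after 9 weeks and 116 CPM after 16 weeks. Control sums ran from 0 to 166 CPM and HFD sums reached 277 CPM, and all lengths overlapped with control. On shared plates, 2 of 6 sums were above the control mean after 1 day, 2 of 4 after 3 days, 3 of 5 after 1 week, 2 of 3 after 4 weeks, 5 of 6 after 9 weeks and 6 of 10 after 16 weeks. With no filter on low counts, its log2 differences lay between -0.36 after 3 days and 0.30 after 16 weeks, with edgeR adjusted p-values of 0.949 or above.

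**Figure D4:**
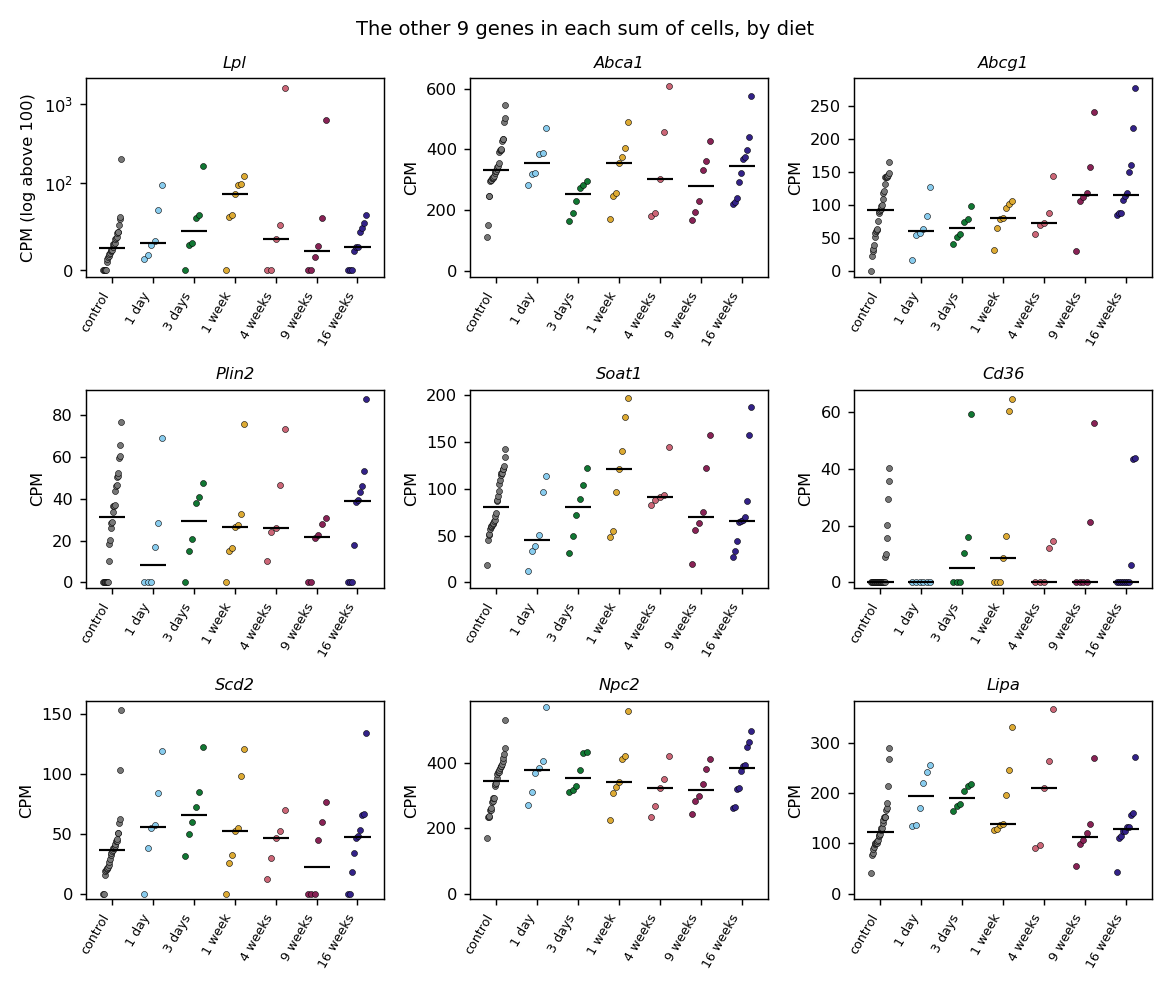
Levels (CPM, y axis, log scale above 100 for Lpl) of the 9 genes other than Apoe in each sum of cells of 1 replicate on 1 plate, by length of HFD (x axis), with the median of each group as a line. In every panel the points of each length overlap with control, and single sums of Lpl stand out at 1633 CPM after 4 weeks and 631 CPM after 9 weeks.

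Npc2 (chr12:84754562-84773152, minus strand) and Lipa act in the lysosome, where Lipa (chr19:34492318-34527474, minus strand), the acid lipase, frees cholesterol and Npc2 hands it on to Npc1 for export. By the share in the top 17 cells, Npc2 was the most even of the 10 genes. Control sums ran from 171 to 531 CPM (median 347) and HFD sums from 226 to 572 CPM, with medians of 378, 355, 341, 324, 317 and 384 CPM from 1 day to 16 weeks. All lengths overlapped with control. After 16 weeks the log2 difference was 0.28 ± 0.13 (SE), with a p of 0.034 and an adjusted p of 0.686 in edgeR's quasi-likelihood test, and Npc2 was above the control mean on 5 of 6 plates and in 7 of 10 sums. This value stayed above 0 in all 28 alternatives, from 0.17 to 0.32, and was called in none. At the other lengths the differences lay between -0.18 after 1 week and 0.23 after 3 days, and leaving out 1 replicate moved the 4 weeks value from -0.03 to between -0.41 (without control replicate M26) and 0.72 (without HFD replicate L2).

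Lipa had medians of 123 CPM in control (40.5 to 289 CPM), 195 after 1 day, 191 after 3 days, 138 after 1 week, 211 after 4 weeks, 113 after 9 weeks and 129 CPM after 16 weeks, with HFD sums from 43.3 to 368 CPM. The medians were higher than control at 5 of 6 lengths, but within plates the fitted log2 differences were 0.19 ± 0.28, 0.12 ± 0.39, 0.08 ± 0.34, 0.10 ± 0.43 and 0.19 ± 0.31 from 1 day to 9 weeks, all smaller than their SEs. With 1 replicate left out they lay between -0.15 and 0.44.

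**Figure D5:**
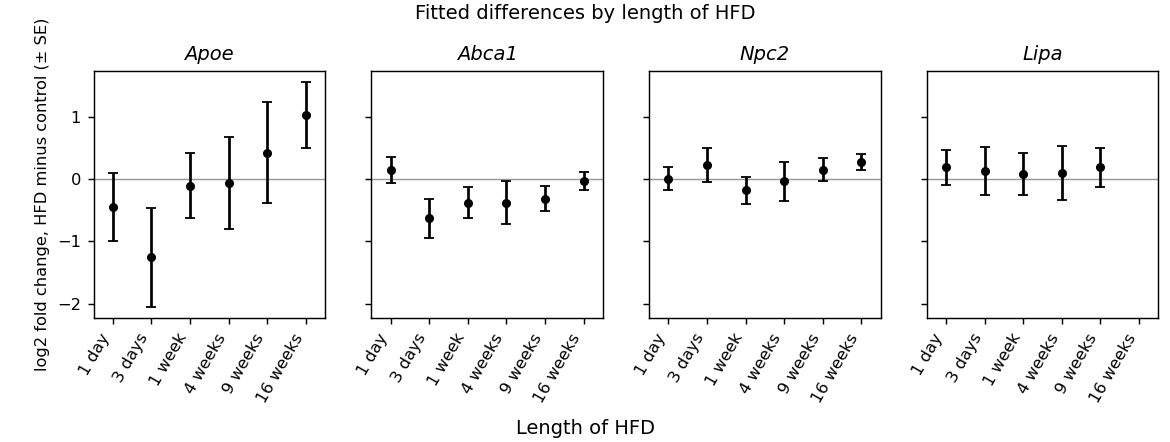
Fitted log2 fold change (HFD minus control, y axis; bars, ± SE) by length of HFD (x axis) for the 4 genes that passed the filter on low counts, from edgeR with the plate as a block. Apoe has the longest bars, from -1.26 after 3 days to 1.03 after 16 weeks, Abca1 lies below 0 at all lengths except 1 day, and Lipa has no value after 16 weeks.

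Soat1 and Plin2 belong to lipid storage. Soat1 (chr1:156424525-156474331, minus strand) makes cholesterol esters, and its control sums ran from 18.6 to 143 CPM (median 80.2). Its medians in HFD were 44.9, 80.7, 121, 91.5, 69.4 and 66.0 CPM from 1 day to 16 weeks. Plin2 (chr4:86648386-86670060, minus strand), the coat protein of lipid droplets, was low, with 148 UMIs in all. Its control sums ran from 0 to 76.7 CPM (median 31.3, 8 of 28 at 0) and its medians in HFD were 8.40, 29.2, 26.3, 26.1, 21.9 and 39.0 CPM. For both genes every length overlapped with control. No more than 3 UMIs of Plin2 were found in any cell.

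Scd2 (chr19:44293674-44306864, plus strand) makes monounsaturated fatty acids. Its 28 control sums had a lowest value of 0, a median of 36.2 and a highest value of 153 CPM. The 6 sums after 3 days had 31.8, 65.9 and 122 CPM in the same order, and those of the other lengths had medians of 56.0, 52.6, 46.3, 22.5 and 47.2 CPM. With no filter on low counts the difference after 3 days was 1.55 on the log2 scale (p = 0.0415, edgeR adjusted p = 0.913), with 3 of 4 sums above the control mean of their plate.

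For Lpl the control sums ran from 0 to 201 CPM with a median of 24.8 CPM, and 5 of 28 were at 0. The medians in HFD were 31.2 CPM after 1 day, 45.2 after 3 days, 87.7 after 1 week, 36.0 after 4 weeks, 21.7 after 9 weeks and 26.5 CPM after 16 weeks. The 5 sums after 4 weeks had 36.0, 0, 1633, 0 and 52.3 CPM, so the mean of this group, 344 CPM, was that of 1 sum. Cd36 was at 0 in 21 of 28 control sums and in all 6 sums after 1 day, and its highest sum, after 1 week, had 64.7 CPM. With no filter, Lpl was 1.82 higher after 9 weeks (p = 0.000216, edgeR adjusted p = 0.369), the smallest p of the 6 members that did not pass the filter. Only 3 of 6 sums lay above the control mean of their plate, and in the highest, M8 on plate 12, 1 cell held 26 of 28 UMIs.

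Whether the lengths of HFD differed from each other or from control was tested for all of them at once. Of 2336 genes tested, 0% were called, by edgeR and by DESeq2, with 133 and 131 genes at an unadjusted p under 0.05. Of the members, Apoe, Abca1, Abcg1, Soat1, Npc2 and Lipa were tested and 0 were called. The smallest p among them was 0.112 for Abca1, with an adjusted p of 0.924. Over the 15 pairs of lengths these 6 genes gave 90 contrasts, of which 0 had an adjusted p under 0.05 and 4 an unadjusted p under 0.05, all for Abca1 or Apoe. The share over all genes is not given for these pairs and the contrasts share groups, so the 4 are not read as a result. Apoe was 2.18 higher after 16 weeks than after 4 weeks (SE 0.95, edgeR adjusted p = 0.902), and Abca1 was 0.80 lower after 3 days than after 1 day on the log2 scale (-0.80, SE 0.34, edgeR adjusted p = 0.852).

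Lpl passed this test in 3 alternatives and Apoe in 1 that kept all cells. Lpl was called with 1 sum per replicate (edgeR adjusted p = 0.0117), with 1 sum per diet and plate (0.00788) and with no filter on low counts (1.31e-09). After the highest Lpl cell of each diet was left out, the adjusted p was 1.00, 0.999 and 0.951 in the same order. Apoe was called with no filter, with an adjusted p of 6.32e-17 and, without the highest cell of each diet, 3.28e-12, and with the filter in none.

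Other genes of lipid handling were followed in 7 lists of 111 genes, 100 of which were in the table and 17 of which passed the filter at 1 length or more. Of these 17, 0 were called at any length and the smallest adjusted p was 0.662. The lists of cholesterol synthesis, lipid droplets and fatty acid oxidation had 0 genes tested, so HFD could not be compared there. Lysosomal lipid breakdown and export, to which Lipa and Npc2 are close, had 10 or 11 of 16 genes tested, with median log2 differences from -0.05 after 3 days to 0.14 after 4 weeks. Lamp1, a lysosomal membrane protein, was at -0.38 ± 0.15 after 1 day (p = 0.0135, edgeR adjusted p = 0.677) and Mlxipl, a regulator of lipid synthesis, at -0.38 ± 0.18 (p = 0.0383, edgeR adjusted p = 0.839), and these were the only ones at an unadjusted p under 0.05. Lrp1, a receptor for Apoe, and Trem2 had differences between -0.30 and 0.13.

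Across the 68 sums, with each gene's log2 CPM centred per plate, the members tested hardly followed each other. Pearson's r ran from -0.23 (Abca1 with Lipa) to 0.23 (Abca1 with Soat1), and that of Apoe with Abca1 was 0.01 and with Abcg1 0.04. Of 2335 genes compared, those most like Apoe were Tmem176a (r = 0.59), Cybb (0.50), a subunit of the phagocyte oxidase, and Cbfb (0.43). Npc2 was most like Psme1 (0.58), a subunit of the proteasome activator, Soat1 most like Fnip1 (0.50), Abca1 most like Nktr (0.44), Abcg1 most like Daglb (0.44) and Lipa most like Eif5a (0.40). These sums share plates and replicates, and the values are descriptions.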

How the data were processed

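The authors deposited, for each of 13 plates, an estimated count of transcripts for every gene and well: reads were trimmed with Cutadapt, mapped to GRCm38/mm10 with STAR and counted with featureCounts within snakePipes, and UMIs of 6 bases were corrected for chance repeats among 4096 possible ones, with no normalization. Converted back, the values were whole UMIs within 0.001. This correction limits the precision of very abundant genes only. Their filtered table gave the genes, and diet, plate and replicate identifier came from the table of wells. Median depth was 2840 transcripts per cell, and 22774 to 219199 per sum. The 879 wells under 1500 transcripts (median 263) were left out, as was 1 sum of 4 cells.

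Estimated counts were summed per replicate and plate, rounded and tested in R 4.3.3 with the quasi-likelihood method of edgeR 4.0.16 (TMM, default filterByExpr, the plate as a block, Benjamini-Hochberg adjustment over all genes tested, threshold 0.05), with DESeq2 1.42.0 and limma 3.58.1 (voom) as alternatives. The 16 replicates on several plates entered more than once, so residual degrees of freedom are overstated. Identifier L1 covers cells whose names carry different numbers of weeks, and the control replicates of plate 13 differ among themselves in the weeks of their names. The scripts were tested on simulated counts. Intervals of shares are exact binomial at 95% and cover counting error only. Thinned values used 1 seeded draw, and doublets were not called, as each well received 1 sorted cell. Gene places are those of GENCODE M21.

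The members, gene lists and tests were chosen with earlier results of these data known. All 10 members were named whatever their values, other lipid genes by list, and the genes most like a member by Pearson correlation of plate-centred log2 CPM (prior count 2). Replicates, plates, cells and genes given as examples for Apoe and Lpl were chosen after their values were seen, as were Apoc1, Axl, Ccr2 and the other genes set beside the Apoe-high cells. Alternatives were the tool, the filters, the plate block, the unit of a sum, the cells kept and leaving out each replicate. Columns of the filtered table were not used as values.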

Additional observations from a re-analysis of the deposited data

Results flagged for a closer look

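Of 59 groups of 4 to 10 sums, 9 had a highest sum set apart from the rest by Dixon's criterion. Chance gives this in about 5% of groups where values are normally distributed. CPM of sparse counts need not be so, and the 9 are not read as more than chance gives. For Apoe these were 1592 CPM for replicate M6 after 1 day on plate 6 (next 248 CPM; 78 of its 94 UMIs in 1 cell), 701 CPM for M7 after 9 weeks on plate 12 (next 138 CPM; 19 of 25 UMIs in 1 cell) and 4632 CPM for M6 after 16 weeks on plate 12 (next 1350 CPM; 163 of 206 UMIs in 1 cell). For Lpl they were 1633 CPM for M21 after 4 weeks on plate 4, with 87 of 110 UMIs in 1 cell, and 631 CPM for M8 after 9 weeks on plate 12, with 26 of 28 UMIs in 1 cell.

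The other 4 rested on few UMIs. Soat1 had 145 CPM in M20 after 4 weeks on plate 4 (12 UMIs), Cd36 59.5 CPM in M24 after 3 days on plate 5 (4 UMIs), Scd2 134 CPM in M9 after 16 weeks on plate 13 (5 UMIs) and Lipa 272 CPM in M6 after 16 weeks on plate 11 (16 UMIs, at most 3 in a cell).

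Wells below the minimum of 1500 transcripts, which entered no comparison, held 566 Apoe UMIs, or 1622 CPM beside 1220 CPM in the cells, and 24.2% of them had an Apoe UMI beside 32.1% of cells.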

How the results depend on the processing

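No member was called at any length in the alternatives, except Apoe after 3 days without control replicate M26 and after 16 weeks with no filter on low counts. Of 139 alternatives each, the fitted difference had the other sign in 27 for Apoe, 14 for Npc2 and 6 for Abca1, and in 10 of 104 for Lipa. For Apoe the sign turned with no plate block (1.01 after 3 days, 1.66 after 1 week, 0.74 after 4 weeks, -2.63 after 9 weeks, -0.19 after 16 weeks), and after 3 days also with voom (1.41), without control replicate M16 (0.42) and without cells with markers of other types (1.37). The causes were not tested.

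The top 1% of cells held 38.4% of the Apoe UMIs with a minimum of 1000 transcripts, 35.3% with 2000 and 44.9% without cells with markers of other types. The difference in the share of cells with an Apoe UMI turned in sign with no thinning (-4.69 points after 3 days, -5.31 after 1 week, -4.62 after 4 weeks), with 2000 transcripts (-0.36 after 1 day, -1.28 after 3 days, -2.85 after 4 weeks) and for cells with 10 or more UMIs (-1.93 after 1 day, -0.0541 after 4 weeks). With 1000 transcripts it passed after 16 weeks (10.8 points, adjusted p = 0.0487 over 6 lengths, permutation of sums), the only one of the alternatives to do so. That test counts the 10 HFD sums of 5 replicates as independent, and with the replicates permuted whole the adjusted p was 0.28 (p = 0.0467, exact permutation).

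Counts of all genes called were 0, 0, 2, 0, 1 and 0 from 1 day to 16 weeks and 0 for any difference. With no plate block they were 2, 14, 6, 8 and 0 from 1 day to 9 weeks and 59 for any difference. With no filter they were 6, 7, 9, 3 and 4 from 3 days to 16 weeks and 30 for any difference. With 1 sum per replicate they were 4, 5 and 6 after 3 days, 1 week and 4 weeks and 5 for any difference, and with 1 sum per diet and plate 4, 4, 5 and 7. With 10 cells in a sum they were 4 after 1 week and 1 after 4 weeks. With 1000 transcripts they were 1 after 1 week and 2 after 4 weeks, with 2000 transcripts 0 after 1 week and 0 after 9 weeks. Without cells with markers of other types they were 0 after 1 week and 2 after 9 weeks, and with voom 0, 1, 0 and 1 from 1 week to 16 weeks. DESeq2 and 1 fit of all lengths called 0 after 1 week and after 9 weeks, and plate 13 controls of the same weeks gave 0 after 1 week. Leaving out 1 replicate gave 0 to 1 called genes after 3 days (1 without M26, which was Apoe), 0 to 5 after 1 week (0 without M13 or any plate 13 control, 5 without M22), 0 to 3 after 4 weeks (3 without L2, 1 without M26), 0 to 3 after 9 weeks (0 without M8 or M2, 3 without M7 or M1) and 0 to 2 after 16 weeks (2 without L4 or L3). The voom fit, the plate 13 controls of the same weeks, the count of cells with 10 or more UMIs, the permutations among replicates, the fits without the highest cells of plate 13 or of the plates shared with 16 weeks, and the fits without the highest cells combined with another filter or way of forming sums were chosen after seeing the data. No paired analysis was possible because the replicate identifiers of control and HFD do not pair samples.

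Depth limited the 6 members that did not pass the filter in the fits of single lengths, with 36 to 496 UMIs over all cells. Abcg1 and Soat1 among them passed it in the fit of all lengths together.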
